A study of Mus musculus with 16 samples.

Results

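The genes described here are 10 that serve protein folding in the endoplasmic reticulum (ER) of the intestinal epithelium, namely Hspa5, Hsp90b1, Calr, Pdia4, Dnajb9, Sdf2l1, Herpud1, Xbp1, Creld2 and Manf. They were chosen by gene symbol, each matched 1 row, and they make up 10 of the 52636 genes listed for the crypts and for one organoid experiment and 10 of the 54532 genes listed for the other. All 10 passed the filter on low counts in every experiment. RNA-seq was done on 16 libraries from C57BL/6 mice in 3 experiments, in each of which mice or cultures labelled Cul4b KO were compared with WT. CUL4B is the scaffold of a ubiquitin ligase, a complex that marks proteins for destruction. Crypts are the pockets of the small intestine that hold the stem cells, and here they were released with EDTA after villi had been scraped away (4 WT and 4 KO-IEC libraries). Cul4b lies on the X chromosome, and in male KO-IEC mice its single floxed allele was deleted in intestinal epithelial cells by Cre from the villin promoter, while WT controls carried the floxed allele without this Cre. Organoids, epithelial cultures grown in Matrigel from such crypts, were sequenced from the same model (2 WT and 2 KO-IEC libraries). A second organoid model, KO-CAG (2 WT and 2 KO-CAG libraries), carried a tamoxifen-inducible Cre under the ubiquitous CAG promoter, which deleted Cul4b after treatment in culture. The study calls this treatment tamoxifen, and its methods name the inducer used in organoids as 4-OHT. The sources used here do not state whether the WT cultures of the KO-CAG experiment carried this Cre or received the inducer. The study used mice of 8 to 16 weeks of age in most of its experiments, and the age of the sequenced ones is not given separately.

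The ER folds proteins that are secreted or placed in membranes. When unfolded proteins build up in it, sensors in its membrane (IRE1, PERK and ATF6) start the unfolded protein response, which raises chaperones and enzymes of protein disposal and slows translation. In the small intestine this response is known mainly for its role in Paneth and goblet cells, which secrete large amounts of protein. IRE1 acts by splicing Xbp1 mRNA, and counts per gene do not separate the spliced from the unspliced form.

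The promoters of some of these genes carry the letters by which the response is known to reach them. The ER stress response element (ERSE) was searched as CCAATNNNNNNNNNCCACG, ERSE-II as ATTGGNCCACG, and the unfolded protein response element (UPRE) as TGACGTGG, on both strands, from 250 bases before to 50 bases after the RefSeq start site on GRCm38.p6. ERSE and ERSE-II share the letters CCACG. Of the 10 genes 9 were matched to a RefSeq promoter. Hspa5, Hsp90b1, Calr and Creld2 held an ERSE, found in 0.119% of all 32851 promoters, and Herpud1 held an ERSE-II, found in 0.0365%. UPRE, found in 0.676%, was in none of the 9, and none of the motifs was found for Pdia4, Dnajb9, Sdf2l1 and Xbp1. A match describes these letters and is no measured binding site. The matched stretches are shown so that the letters can be read beside the values of the 5 genes below. In KO-CAG organoids genes with and without a match passed the test described below (edgeR, adjusted p under 0.05), 4 of these 5 (not Hsp90b1, which has a pair of matches) and 2 of the 4 others, Sdf2l1 and Dnajb9, where 31.5% of all tested genes did. They are written 5′ to 3′ on the strand of the gene, with the match in capitals (on the opposite strand the letters read in reverse complement), for Hspa5 at chr2:34772020-34772048 (+), Herpud1 at chr8:94386357-94386407 (+), Calr at chr8:84847055-84847113 (-), Creld2 at chr15:88819500-88819558 (+) and Hsp90b1 at chr10:86705513-86705676 (-).
Hspa5: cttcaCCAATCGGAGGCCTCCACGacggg
Herpud1: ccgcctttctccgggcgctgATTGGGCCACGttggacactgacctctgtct
Calr: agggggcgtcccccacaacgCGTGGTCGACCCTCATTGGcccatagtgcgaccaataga
Creld2: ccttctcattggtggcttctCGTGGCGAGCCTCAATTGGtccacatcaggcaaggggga
Hsp90b1: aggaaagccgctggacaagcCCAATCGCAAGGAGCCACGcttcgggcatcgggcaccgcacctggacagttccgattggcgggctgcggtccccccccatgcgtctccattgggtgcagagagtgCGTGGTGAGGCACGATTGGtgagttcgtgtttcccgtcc
The last base of the match lay 47 bases before the start site in Hspa5, 42 in Herpud1, 144 in Calr and 108 in Creld2. In Hsp90b1 the matches ended 194 and 89 bases before it. GENCODE release M21 also lists an Hspa5 transcript that starts upstream of the RefSeq start site.

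Total counts ran from 9311734 to 13479974 in the crypt libraries, from 15006730 to 16881395 in the KO-IEC organoid experiment and from 7348191 to 10462275 in the KO-CAG experiment. Levels are given as CPM, counts scaled to the size of each library. A count of 3 was worth 0.178 to 0.408 CPM, far below every value of the 10 genes, and this floor covers counting error only. Libraries of a genotype varied with a biological coefficient of variation of 0.231 (crypts), 0.280 (KO-IEC organoids) and 0.0815 (KO-CAG organoids). The study calls its replicates biological, but the labels do not tie them to separate animals or cultures, so p-values measure only the spread between these libraries. In bulk RNA, fewer cells of a type and less RNA per cell cannot be told apart.

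The deleted gene was checked first. Cul4b read 31.7, 33.2, 38.3 and 32.3 CPM in WT crypts and 1.69, 0.99, 0.85 and 2.21 CPM in KO-IEC crypts. In the KO-IEC organoid experiment it read 83.2 and 73.2 CPM in WT and 1.69 and 1.76 CPM in KO, and in the KO-CAG experiment 72.9 and 70.1 CPM in WT and 3.34 and 5.19 CPM in KO. No KO library reached a WT library in any experiment, so the counts match the labels, and the fall passed the test in each (log2 fold change -4.56, -5.50 and -4.02). Epithelial markers were abundant in all 16 libraries (Krt8 led, 6 of 6 with counts), while T cell markers summed to at most 0.769 CPM in the organoids and to 22.8 to 389.9 CPM in the crypts.

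The 10 genes differed widely in level. By CPM per kilobase of gene length (RPKM), the order in WT crypts was Calr (323 ± 11.5, SD, n = 4), a calcium-binding chaperone of glycoproteins, Hspa5 (172 ± 14.95), the HSP70 of the ER that also holds the sensors inactive, Hsp90b1 (157 ± 15.95), the HSP90 of the ER, and Pdia4 (68.1 ± 7.78), a protein disulfide isomerase. Xbp1, the transcription factor made active by IRE1, followed at 56.9 ± 4.84, then Sdf2l1 (48.3 ± 6.43), a partner of HSP70 cochaperones, Manf (48.1 ± 4.07), a secreted ER stress protein, and Creld2 (38.2 ± 4.42), an ER protein with disulfide isomerase activity. Herpud1, a membrane protein of ER-associated degradation, was at 28.7 ± 2.62, and Dnajb9, a cochaperone of HSPA5, was lowest at 10.8 ± 1.65 RPKM. The WT libraries of neighbours in this order overlapped for Hspa5 and Hsp90b1 and from Pdia4 through Manf. By mean, Calr was highest, Hspa5, Hsp90b1 and Pdia4 held the next places and Dnajb9 was lowest in WT of both organoid experiments too. In both, the WT libraries of Pdia4 overlapped those of Xbp1, the next in the order. Exons of Hsp90b1 overlap an antisense gene over 10.3% of their bases, and the counting is not stated to use strand, so the reads of the pair cannot be told apart there. For Pdia4, Dnajb9 and Manf overlaps with any one gene covered at most 4.71%.

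**Figure D1:**
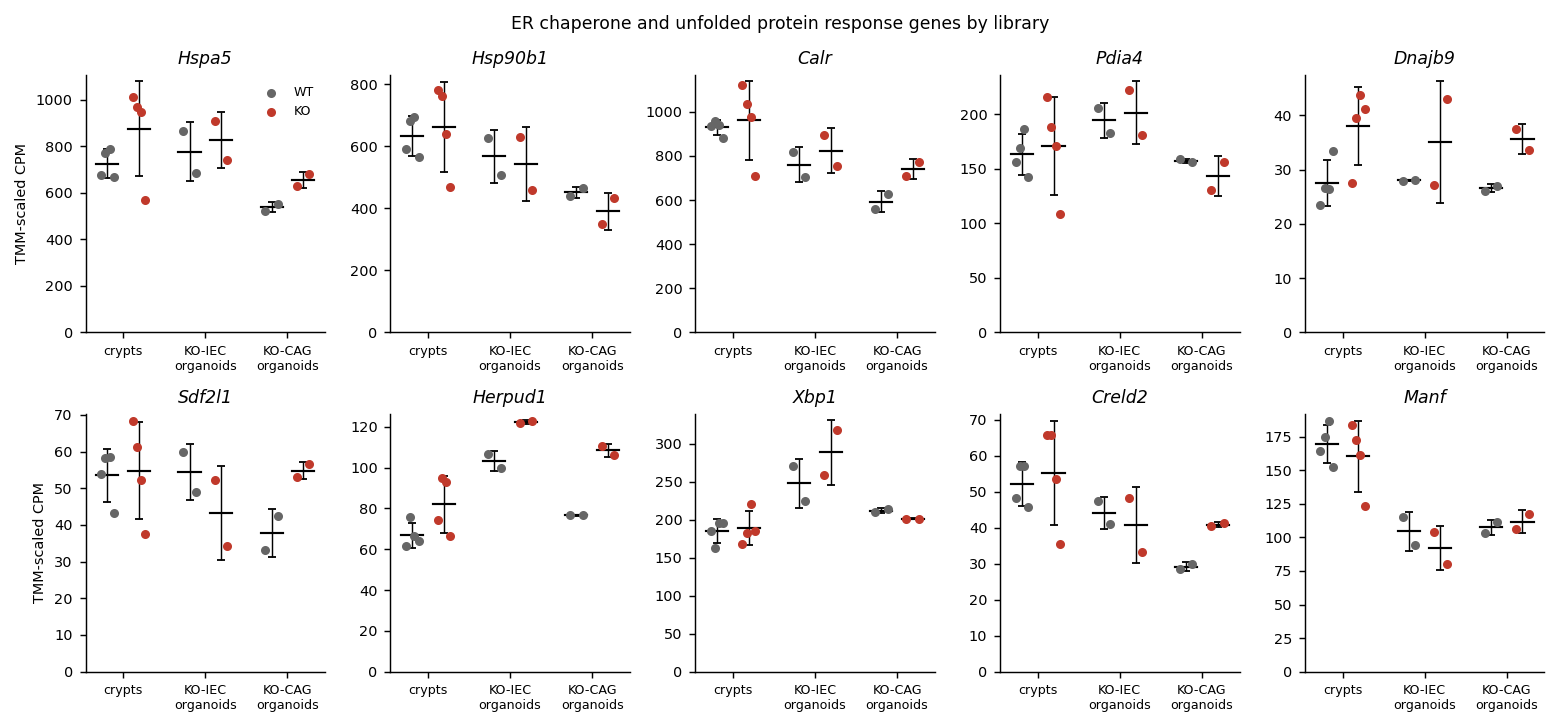
TMM-scaled CPM (y axis, linear from 0) of the 10 genes in each library, WT in grey and KO in red, for crypts (4 and 4 libraries) and both organoid experiments (2 and 2 each). Points are libraries, lines the mean and bars the SD. In the crypts 1 KO library is the lowest point for 7 of the genes, and in KO-CAG organoids Herpud1 is at 111 and 106 CPM against 76.9 and 76.6 CPM in WT.

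In KO-CAG organoids 6 of the 10 genes rose and none fell. They were Sdf2l1, Herpud1, Creld2, Dnajb9, Calr and Hspa5, with increases of 1.22 to 1.45-fold. The cochaperone gene Dnajb9 and the degradation gene Herpud1 were among them, while Hsp90b1, Pdia4, Xbp1 and Manf did not pass the test. A call means a Benjamini-Hochberg adjusted p under 0.05 from the quasi-likelihood F test in edgeR. Calls were made for 31.5% of the 13598 genes tested in this experiment, of which 18.1% were higher and 13.4% lower in KO (shares of all tested genes). None of the 6 reached a 2-fold change, a threshold that 8.6% of genes passed together with the adjusted p. The median log2 fold change was 0.30 over the 10 genes and 0.00 over all genes tested.

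Herpud1 read 76.9 and 76.6 CPM in WT and 111 and 106 CPM in KO-CAG organoids. Its log2 fold change was 0.50 (standard error 0.08, edgeR adjusted p = 0.00129). Both KO libraries were above both WT libraries, which were nearly equal. Sdf2l1 read 33.2 and 42.5 CPM in WT and 53.1 and 56.5 CPM in KO-CAG, a log2 fold change of 0.54 (standard error 0.13, edgeR adjusted p = 0.0090). The groups did not overlap, although the WT libraries differed by more than the KO libraries. Creld2 read 28.4 and 30.1 CPM in WT and 40.5 and 41.3 CPM in KO-CAG, which gave a log2 fold change of 0.49 (standard error 0.11, edgeR adjusted p = 0.00781). Again the KO libraries were the higher pair.

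Dnajb9 was at 26.1 and 27.1 CPM in WT and at 37.5 and 33.7 CPM in KO-CAG organoids. The log2 fold change was 0.42 (standard error 0.12, edgeR adjusted p = 0.0245), with no overlap of the groups. For Calr the values were 560.3 and 625 CPM in WT and 709.5 and 771 CPM in KO-CAG, which gave 0.32 (standard error 0.10, edgeR adjusted p = 0.0289) on the log2 scale. Hspa5, a chaperone often used as a readout of ER stress, was at 524 and 554 CPM in WT and at 630.4 and 680.0 CPM in KO-CAG organoids. It had the smallest of the 6 changes, 0.28 (standard error 0.09, edgeR adjusted p = 0.0375), and its KO libraries too were the higher pair.

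Of the other 4, Hsp90b1 was at 438 and 464 CPM in WT and at 349 and 432 CPM in KO-CAG organoids (log2 fold change -0.21, edgeR adjusted p = 0.177). Pdia4 was at 159 and 156 CPM in WT and at 131 and 156 CPM in KO-CAG (-0.13, edgeR adjusted p = 0.329). Both had 1 KO library close to WT and 1 well below. Xbp1 was at 210 and 214 CPM in WT and at 201 and 201 CPM in KO-CAG (-0.07, edgeR adjusted p = 0.501), so the KO libraries were slightly lower, and Manf overlapped between genotypes (0.06, edgeR adjusted p = 0.630). The libraries of WT and KO did not overlap for 9 of the 10 genes, where 69.7% of all tested genes did not overlap. With 2 against 2 libraries an exact permutation test cannot give a p under 0.333.

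The calls in KO-CAG organoids changed with the fit and with single libraries. DESeq2's Wald test called 4 of the 6, without Dnajb9 and Creld2. It called 9.64% of all genes with counts, low counts included. In 1 fit of all 16 libraries over 15585 genes none of the 6 was called (edgeR adjusted p from 0.101 to 0.543). The fold changes stayed at 0.28 to 0.53 on the log2 scale. That fit called 3.06% of all its tested genes for KO-CAG organoids, against 31.5% in the main fit, so calls were lost in general. Without WT 1 only Herpud1 was called, without WT 2 Herpud1, Sdf2l1 and Creld2 were, and without KO 2 there were 7 calls that included falls of Hsp90b1 and Pdia4 and lacked Hspa5. Calls over all genes also fell without WT 1 or WT 2 and rose without KO 2. Where 1 of a pair was left out, the other pair alone gave the spread.

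**Figure D2:**
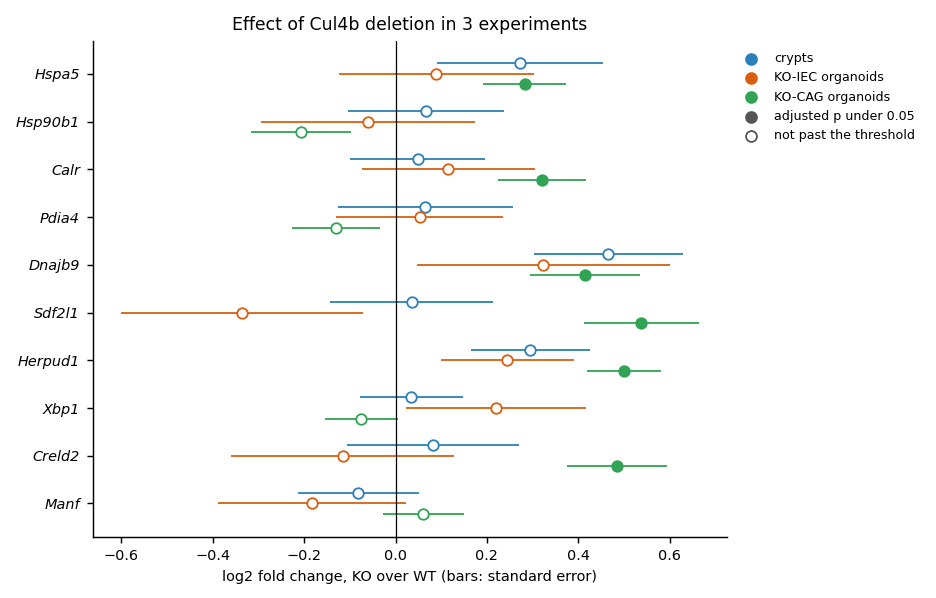
Log2 fold change of KO over WT (x axis) with its standard error (bars) for the 10 genes for crypts in blue, KO-IEC in orange and KO-CAG in green. Filled points passed an edgeR adjusted p under 0.05, which 6 genes did in KO-CAG organoids and none in the other experiments. Hspa5, Calr, Dnajb9 and Herpud1 have positive values in all 3.

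In KO-IEC crypts none of the 10 genes was called (edgeR). DESeq2's Wald test called none either. An unadjusted p under 0.05 (edgeR) was found for 2 genes, Dnajb9 and Herpud1, and for 4287 of all 13427 tested genes. Of 13427 tested genes 6.96% were called, 4.3% higher and 2.66% lower in KO. The values were positive for 9 of the 10 genes with a median log2 fold change of 0.07, against -0.01 for all genes. No gene separated the genotypes completely, which 17.5% of all tested genes did.

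The value furthest from 0 was that of Dnajb9, which read 23.5, 26.6, 26.4 and 33.4 CPM in WT and 27.5, 39.5, 43.7 and 41.3 CPM in KO-IEC crypts. KO 1 lay among the WT libraries and the other 3 KO libraries above all of them. The log2 fold change was 0.47 (standard error 0.16, edgeR adjusted p = 0.0915, exact two-sided permutation p = 0.0571 where 4 against 4 can give 0.0286). It passed the threshold without WT 4 (edgeR adjusted p = 0.0496) or without KO 1 (edgeR adjusted p = 0.0250), fits that called 13.6% and 18% of all tested genes. Herpud1 read 61.8, 75.7, 66.3 and 64.1 CPM in WT and 74.4, 94.8, 92.8 and 66.5 CPM in KO-IEC crypts, a log2 fold change of 0.29 (standard error 0.13, edgeR adjusted p = 0.154). Here KO 2 and KO 3 stood above all WT libraries and KO 1 and KO 4 within their range.

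Hspa5 read 675, 772, 788 and 667 CPM in WT crypts and 1014, 970.4, 949 and 572 CPM in KO-IEC crypts. KO 1, KO 2 and KO 3 were above every WT library and KO 4 was below every one. The log2 fold change was 0.27 (standard error 0.18, edgeR adjusted p = 0.324), and without KO 4 it was 0.44 (edgeR adjusted p = 0.0588). The same library was the lowest of the 8 for 7 of the 10 genes, Hspa5, Hsp90b1, Calr, Pdia4, Sdf2l1, Creld2 and Manf. On average over the 10 genes KO 4 lay at -0.26 log2 CPM from the WT mean, while KO 1, KO 2 and KO 3 lay at 0.23, 0.27 and 0.19. The other 7 genes had log2 fold changes from -0.08 (Manf) to 0.08 (Creld2).

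The crypt libraries also differed in mitochondrial ribosomal RNA (mt-Rnr1 and mt-Rnr2 together). It was at 18.9 to 25.2 CPM in WT 1, KO 1, KO 2 and KO 3, intermediate in WT 4 (834 CPM) and KO 4 (1078 CPM), and at 2840 and 2873 CPM in WT 2 and WT 3. Among the 4 libraries with the low level all 10 genes were higher in KO, by 0.03 to 0.62 log2 CPM (Hspa5 0.53, Dnajb9 0.62). Between WT 4 and KO 4, 8 of the 10 were lower in KO (Hspa5 -0.22, Pdia4 -0.39), with Dnajb9 at 0.30 and Herpud1 at 0.05. These comparisons have 1 WT library each and no test. Summed Paneth cell markers, led by Defa24, were 13161 to 24675 CPM in WT and 15885, 9771, 2535 and 23799 CPM in KO 1 to KO 4. Summed goblet cell markers, led by Fcgbp, were 5770 to 8580 CPM in WT and 7825, 8791, 12506 and 9365 CPM in KO 1 to KO 4, above every WT library in KO 2, KO 3 and KO 4. Singly, 5 of the 10 goblet cell markers had positive log2 fold changes, with a median of -0.04, and 0 were called (edgeR). Summed plasma cell markers, led by Sdc1, were 121.6 CPM in KO 4, the lowest of the 8, and 153 to 212 CPM in the other crypt libraries. Sdc1 was 97.0 CPM of the sum in KO 4, and it also read 250 to 347 CPM in the organoids. The sum, also as a covariate, is therefore no measure of plasma cells alone. With the mitochondrial class, the plasma cell markers or the Paneth and goblet cell markers as a covariate the calls over all genes went from 934 to 2, 35 and 2. None of the 10 genes was called with or without a covariate. With Paneth and goblet cell markers the log2 fold changes were 0.17 for Herpud1, 0.18 for Hspa5 and 0.39 for Dnajb9, and with the other covariates they were 0.30 to 0.32, 0.22 to 0.29 and 0.48 to 0.51. Summed tuft cell markers, led by Trpm5, were 271 CPM in KO 4 and 36.1 to 68.0 CPM in the other 7 libraries. Enterocyte markers, led by Apoa1, summed to 2189 to 9457 CPM in WT and 8209 to 18019 CPM in KO-IEC crypts. Stem cell markers, led by Olfm4, summed to 2013 to 3032 CPM in WT and 1307 to 2087 CPM in KO-IEC crypts, and 2 of 6, Lgr5 (-0.74, edgeR adjusted p = 0.0379) and Ascl2 (-0.67, edgeR adjusted p = 0.0499), fell. T cell markers, led by Gzma, summed to 389.9 CPM in KO 3 and 203 CPM in KO 4, above the 22.8 to 117 CPM of WT, and to 55.4 and 79.1 CPM in KO 1 and KO 2. Summed stroma markers, led by Vim, were low but did not overlap, at 13.3 to 17.5 CPM in WT and 7.29 to 10.1 CPM in KO-IEC crypts, with 0 of 3 tested genes called (1 at an unadjusted p under 0.05, edgeR). The part of tuft cells, enterocytes, stem cells, T cells and stroma in the result was not tested.

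**Figure D3:**
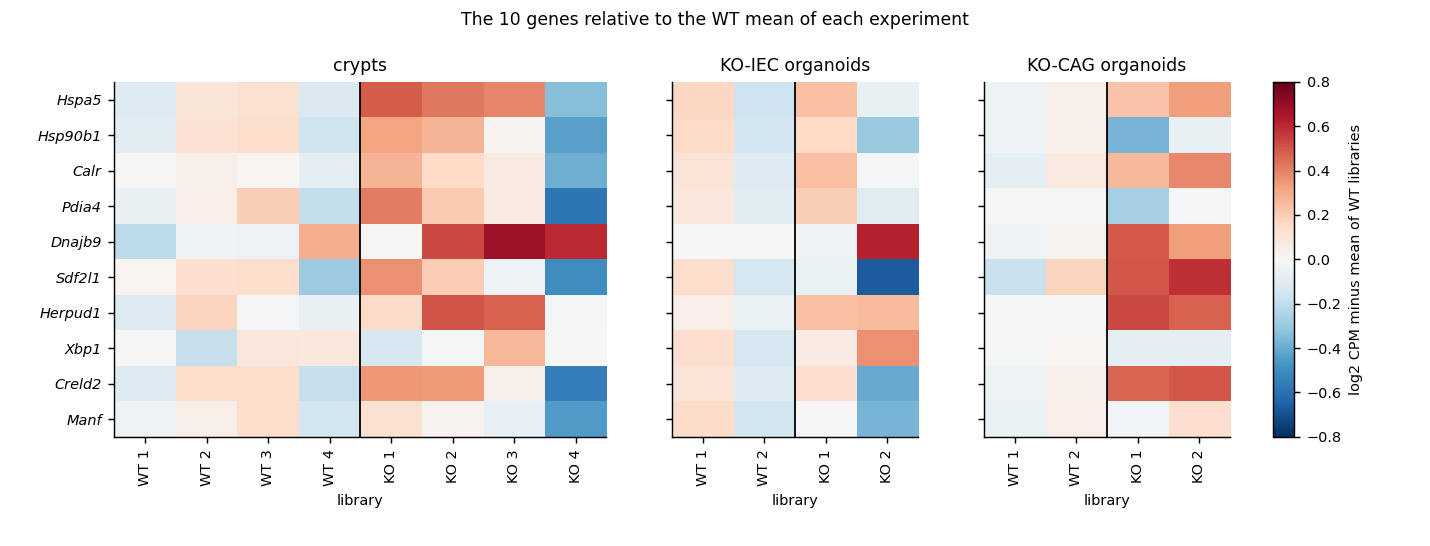
Log2 CPM of the 10 genes (rows) in each library (columns) minus the mean of the WT libraries of its experiment, red above and blue below, with a black line between WT and KO. The crypt library KO 4 is clearly blue for the 7 genes of which it is the lowest library and red for Dnajb9, and both KO-CAG libraries are red for the 6 genes that rose.

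In KO-IEC organoids none of the 10 genes was called and none had an unadjusted p under 0.05 (edgeR). DESeq2's Wald test called none as well. In this experiment 0.00717% of 13938 tested genes were called, which is Cul4b alone. The values were positive for 6 of the 10 genes, with a median log2 fold change of 0.07. Herpud1, the 1 gene whose groups did not overlap (38.9% of all tested genes did not), read 107 and 99.7 CPM in WT and 122 and 123 CPM in KO-IEC organoids (log2 fold change 0.24, standard error 0.15, edgeR adjusted p = 0.856). Its KO libraries were nearly equal and both above WT.

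Within this genotype the libraries diverged. Dnajb9 read 28.0 and 28.1 CPM in WT and 27.1 and 43.1 CPM in KO-IEC organoids, and Sdf2l1 read 59.9 and 49.1 CPM in WT and 52.2 and 34.2 CPM in KO. In both genes KO 2 was the library that stood apart, upwards in Dnajb9 and downwards in Sdf2l1. Without KO 1 both were called (Dnajb9 0.62, edgeR adjusted p = 0.0431, Sdf2l1 -0.68, edgeR adjusted p = 0.0464), as were 15.8% of all 14650 genes tested there, with KO 2 as the lone KO library and the WT pair giving the spread. In KO 2 summed goblet cell markers, led by Fcgbp, were 6912 CPM against 1763 to 2089 CPM in the other 3 libraries, and summed stem cell markers were 559 CPM against 2156 to 4660 CPM, with Olfm4 at 13.7 CPM against 1019 to 2820 CPM. Enteroendocrine markers summed to 910 CPM in KO 2 against 263 to 460 CPM, and tuft cell markers to 74.7 against 29.8 to 40.6 CPM. Stroma markers were at 17.8 against 7.89 to 9.76 CPM. KO 1 was below WT in stem cell markers too, at 2156 CPM against 3285 and 4660 CPM. Summed Paneth cell markers were lower in each KO library, at 1997 and 2546 CPM against 2733 and 4527 CPM in WT. The part of these markers in the result was not tested.

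Whether the effect of the deletion differed between experiments was tested as an interaction in 1 fit of all 16 libraries over 15585 genes. None of the 10 genes differed between crypts and KO-CAG organoids, where 0.372% of genes did, or between crypts and KO-IEC organoids, where 0.00642% did. Between KO-IEC and KO-CAG organoids 0.385% of genes differed and none of the 10. Unadjusted p was under 0.05 for no gene in the first 2 comparisons and for 1 gene, Sdf2l1, in the last. Its log2 fold change was higher by 0.85 in KO-CAG than in KO-IEC organoids (standard error 0.36, unadjusted p = 0.0320 and adjusted p = 0.406, edgeR). The calls in KO-CAG organoids are therefore not shown to be particular to that model.

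The 10 genes did not all vary alike. Over the 16 libraries, with log2 CPM centred on the mean of each experiment, Hspa5 had a Pearson r of 0.98 with the mean of the other 9, Calr 0.91 and Creld2 0.88. The values were 0.63 to 0.73 for Sdf2l1, Pdia4, Manf, Hsp90b1 and Herpud1. Xbp1 (-0.12) and Dnajb9 (-0.15) had coefficients below 0. Of 12468 genes compared, those most like the mean of the 10 were Hyou1 (r = 0.95), an ER chaperone of the HSP70 family, Lman2 (0.95), a lectin of the secretory pathway, Arl8b (0.94), a small GTPase of lysosomes, Uggt1 (0.90), the folding sensor of glycoproteins, and Mex3c (0.90), an RNA-binding ubiquitin ligase. Whether libraries of an experiment were prepared together is not stated in the labels, and these coefficients are descriptions.

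Shares called in the lists of the pathway that follow are to be read against all genes. Of these 18.1% were called higher and 13.4% lower in KO-CAG organoids and 4.3% higher and 2.66% lower in crypts. For KO-CAG organoids the fit of all 16 libraries called 3.06% of all its tested genes. DESeq2's Wald test called 9.64% of all genes with counts there and 7.84% in crypts. Fits without WT 1 or WT 2 of the KO-CAG experiment also called fewer of all genes. The sensors and membrane-bound transcription factors of the pathway, 12 genes, had 4 members higher and 1 lower in KO-CAG organoids (33.3% and 8.33% of the list), and 2 and 0 in the fit of all 16 libraries. Creb3l3, a membrane-bound transcription factor known from liver and gut, read 92.8 and 99.1 CPM in WT and 313 and 233 CPM in KO-CAG (log2 fold change 1.51, edgeR adjusted p = 4.06e-05). Eif2ak3, which encodes PERK, read 29.8 and 29.8 CPM in WT and 51.2 and 46.2 CPM in KO-CAG (0.70, edgeR adjusted p = 0.00105). In both genes the KO libraries lay well above a tight WT pair. Creb3l2 (0.79) and Creb3 (0.70), of the same family as Creb3l3, rose as well, and Mbtps2, a protease that releases ATF6 from the membrane, fell by 0.45 on the log2 scale. Ern1 and Ern2, which encode IRE1 proteins, and Atf6 were not called, with values of 0.13, -0.09 and 0.12. In the crypts Creb3l2 alone was called, at 25.5, 22.2, 18.8 and 35.8 CPM in WT and 31.7, 53.3, 58.3 and 57.0 CPM in KO-IEC (0.97, edgeR adjusted p = 0.0475), with KO 1 inside the WT range. Creb3l3 had 1.33 there (edgeR adjusted p = 0.0606), with 45.1 to 140.0 CPM in WT and 114 to 295 CPM in KO-IEC.

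The PERK arm, 10 genes that act in translation control and the stress response downstream of it, had 5 genes higher and none lower in KO-CAG organoids (50% of the list). The 5 became 3 without WT 1, 3 without WT 2 and 1 in the fit of all 16 libraries. Sesn2, a stress-induced regulator of mTORC1, read 20.5 and 20.2 CPM in WT and 77.3 and 72.8 CPM in KO-CAG (1.88, edgeR adjusted p = 4.22e-06). Atf3 (1.41), Chac1 (0.83) and Ddit3 (0.81), all known targets of ATF4, and Ppp1r15b (0.31), a phosphatase subunit that restores translation, rose too, while Atf4 itself had 0.24 (edgeR adjusted p = 0.0824). Asns, the asparagine synthetase gene and another known target of ATF4, was at 137 and 141 CPM in WT and 121 and 146 CPM in KO-CAG (-0.05, edgeR adjusted p = 0.744), with overlapping groups. In the crypts Ppp1r15b was the 1 gene called, at 148 to 161 CPM in WT and 184 to 224 CPM in KO-IEC (0.43, edgeR adjusted p = 0.0450), and the list median was 0.12. Atf3 read 61.3 and 16.6 CPM in KO 3 and KO 4, above the 2.64 to 7.48 CPM of WT, and 4.86 and 4.58 CPM in KO 1 and KO 2 (2.23, edgeR adjusted p = 0.102). Ddit3 was above every WT library in KO 2, KO 3 and KO 4 and below them in KO 1 (0.34, edgeR adjusted p = 0.268), while Chac1 had -1.20 and Sesn2 -0.01, none of the 4 past the test. Asns was lower in each KO-IEC crypt library (35.6 to 51.1 CPM) than in any WT library (52.3 to 88.9 CPM), which gave -0.65 and missed the threshold (edgeR adjusted p = 0.0523).

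The list of other ER chaperones had 16 tested genes. In KO-CAG organoids 4 (25%) rose, with Dnajb11 (0.63) and Hyou1 (0.32) the largest changes upwards, and 1 (6.25%) fell, the nucleotide exchange factor of HSPA5 called Sil1 (-0.53, edgeR adjusted p = 0.00447). The 4 became 1 without WT 1 and 1 in the fit of all 16 libraries, where Sil1 was not called. Sil1 was also the 1 gene of this list called in the crypts (-0.54, edgeR adjusted p = 0.0465), where its WT libraries lay at 26.6 to 34.9 CPM and its KO-IEC libraries at 18.3 to 25.1 CPM. Among 18 disulfide and proline isomerases edgeR called none in the crypts. DESeq2's Wald test, which called 7.84% of all genes with counts there, called 3 of the 18 higher and 2 lower. In the crypts 8 of the 18 had an unadjusted p under 0.05 (edgeR), as had 4287 of all 13427 tested genes. In KO-CAG organoids 3 (16.7%) rose, P4hb (0.55), Agr2 (0.54), an isomerase of goblet cells, and Pdia3. The oxidase gene Ero1l fell in KO-CAG organoids from 220.4 and 240.2 CPM to 97.0 to 126.1 CPM (-1.04, edgeR adjusted p = 0.000173). In the fit of all 16 libraries 0 of this list were called higher and 1 lower in KO-CAG organoids.

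Of the ER-associated degradation list 7 of 24 genes (29.2%) rose and none fell in KO-CAG organoids, led by the ubiquitin ligase gene Syvn1 (0.57), Nploc4 (0.56) and Selenos (0.48), and 3 of 23 (13%) rose in the crypts, March6 (0.76), Edem1 (0.43) and Syvn1, whose groups overlapped. The 7 in KO-CAG organoids became 3 without WT 1, 5 by DESeq2's Wald test and 1 in the fit of all 16 libraries. ER to Golgi transport had 13 of 20 genes higher and none lower in KO-CAG organoids, a share of 65%. The 13 became 0 in the fit of all 16 libraries, which called 3.06% of all its tested genes. They became 8 by DESeq2's Wald test, which called 9.64% of all genes with counts. Without WT 1 or WT 2 fewer were called too, both in this list and over all genes. The coat protein genes Sec24d (1.11 in KO-CAG organoids and 1.14 in crypts) and Sec23a (0.67 and 1.00) rose in both, as did Kdelr3 (1.07) in KO-CAG organoids and Sec24a (0.88) in crypts, where 3 of 20 (15%) rose. Signal peptide and translocation genes were not called by edgeR in either (0 of 23). Unadjusted p was under 0.05 (edgeR) for 4 of the 23 in crypts, as it was for 4287 of all 13427 tested genes. In KO-CAG organoids it was so for 2 of the 23 and for 5848 of all 13598 tested genes. DESeq2's Wald test called 1 of the 23 lower in the crypts. In KO-CAG organoids 2 of 12 oligosaccharyltransferase genes, Krtcap2 and Stt3b, fell, which became 0 in the fit of all 16 libraries.

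Chaperones outside the ER were counted for comparison. Of 18 cytosolic heat shock genes 5 (27.8%) rose in KO-CAG organoids, among them Dnaja1 (0.54) and the near-identical copies Hspa1a and Hspa1b, whose reads can be split uncertainly, and Dnaja1 was the 1 called in the crypts (0.71). The 5 in KO-CAG organoids became 2 without WT 1 or WT 2 and 0 in the fit of all 16 libraries. Mitochondrial chaperones and proteases had 2 of 8 genes (25%) lower in KO-CAG organoids, Lonp1 (-0.38) and Trap1 (-0.35), and 1 lower in the crypts, the protease gene Clpp (-0.54), whose groups overlapped. The 2 in KO-CAG organoids became 0 in the fit of all 16 libraries. In KO-IEC organoids none of the 161 tested genes of the 10 lists was called by edgeR or by DESeq2. Of the 161, 6 had an unadjusted p under 0.05 (edgeR), as had 650 of all 13938 tested genes. Without KO 1 of that experiment 13 were called higher and 11 lower, a share of 14.9% where all genes had 15.8%. The 9 higher and 2 lower calls of these lists in the crypts depended on single libraries, with none called without WT 1, WT 2, WT 3, KO 2 or KO 3, where the calls over all genes went from 934 to between 2 and 20. They were also 0 with a replicate block and with each covariate. With library size alone they were 4 higher and 1 lower, 3.12% of the tested list genes where all genes had 4.73%. There Creb3l2, Ppp1r15b, Dnaja1, Clpp and 2 of the 3 degradation genes were not called. By DESeq2's Wald test the list calls were 20 and 9, or 17.8%. All genes with counts, low counts included, had 7.84% there. Without WT 4 the crypt calls were 17 higher and 6 lower, without KO 1 17 and 9, and without KO 4 8 and 0. These fits called 13.6%, 18.0% and 3.75% of all tested genes. The 41 higher and 7 lower calls in KO-CAG organoids (25.5% and 4.35%) became 5 and 1 in the fit of all 16 libraries. That was 3.73% of the tested list genes, where 3.06% of all genes were called. Without WT 1 the calls fell and without KO 2 they rose, both in the lists and over all genes.

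**Figure D4:**
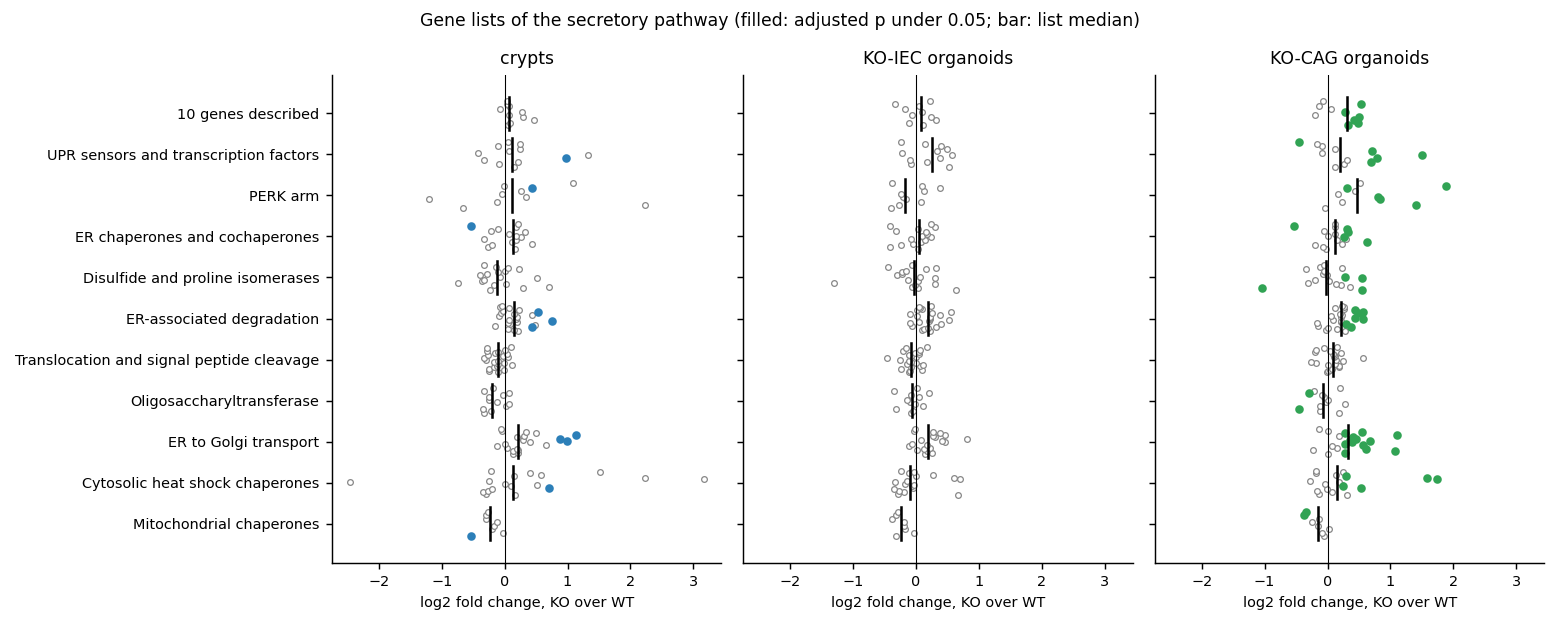
Log2 fold change of KO over WT (x axis) for every tested gene of the 10 described genes and of 10 lists of the secretory and chaperone pathways (rows), with a panel for each experiment. Points are genes, filled where the edgeR adjusted p was under 0.05, and black bars are list medians. In KO-CAG organoids 13 of 20 ER to Golgi transport genes are filled, and no point is filled in KO-IEC organoids. In the fit of all 16 libraries, not drawn, the 13 became 0, where 3.06% of all genes were called.

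Cell type markers moved with these changes in KO-CAG organoids. Summed Paneth cell markers, led by Defa24, were at 6267 and 5820 CPM in WT and 10556 and 9924 CPM in KO-CAG, with 9 of 10 genes called higher. Goblet cell markers, led by Fcgbp, went from 5330 and 5097 CPM to 8753 and 8106 CPM, with 6 of 10 higher. Enteroendocrine markers, led by Chgb, rose in 8 of 8 genes and enterocyte markers, led by Apoa1, in 8 of 9, while 3 of 6 stem cell markers fell, where 18.1% of all genes were called higher and 13.4% lower. Epithelium markers, led by Krt8, were at 6176 and 5936 CPM in WT and 9173 and 8090 CPM in KO-CAG (3 of 6 higher, 1 lower), 2 of 5 tested tuft cell markers rose, and so did the 1 stroma marker tested. Plasma cell markers, led by Sdc1, summed to 301 and 286 CPM in WT and 349 and 339 CPM in KO-CAG, and 4 to 6 of the 8 were at 0 counts in every library. The part of cell makeup in the changes of the ER genes was not tested.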

How the data were processed

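RNA-seq libraries were prepared and sequenced by Novogene, and the authors' deposited tables, 1 per experiment, hold unnormalized read counts for each gene. Per the submitters' processing notes HISAT2 2.0.5 and featureCounts 1.5.0-p3 were named, with build and strand use not given in the sources used here. Gene positions in the tables equal those of GENCODE M21 on GRCm38 for 95.2% to 98.3% of matched genes. Groups came from the sample labels. Each experiment was fitted alone, KO against WT, in edgeR 4.0.16 (R 4.3.3) with filterByExpr, TMM scaling and its quasi-likelihood F test. P-values were adjusted by Benjamini-Hochberg across every gene tested, and a call means an adjusted p under 0.05. DESeq2 1.42.0 was an alternative, beside other scalings and filters, 1 fit of all libraries, each library left out, a replicate block and covariates of the crypt libraries. CPM values are TMM-scaled except floors and mitochondrial ribosomal RNA, which are relative to total counts. Classes of the latter have bounds at 100 and 2000 CPM. Exact two-sided permutation tests were run on CPM. Promoters were read from RefSeq. Where a symbol had 2 rows (Srp54a, Ddit3) the row with more counts was used.

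The 10 genes and all lists were chosen with earlier results of these data known. Named genes are the 10 and Cul4b, sensors and transcription factors, up to 3 called, non-overlapping genes per list and experiment with the largest change, cell type markers, and the 5 genes most like the mean of the 10. Others (Pdia3, Ddit3 and Ppp1r15b in KO-CAG organoids, Syvn1 and Clpp in crypts, and genes not called, such as Asns) were named after their values were seen. The scripts were tested on simulated data with known answers. Signs and sizes were recovered in every experiment, but in KO-IEC organoids most of even the 4-fold differences were not called, so a lack of calls there says little.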

Additional observations from a re-analysis of the deposited data

Results flagged for a closer look

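Hspa5 in the crypt library KO 4 stood apart from the other KO-IEC crypt libraries, at 572 CPM against 949 to 1014 CPM. The gap to the nearest of the others was 0.853 of the range of the group, above the 95% critical value of Dixon's test for 4 samples. Chance flags about 1 in 20 groups, and 20 groups of crypt libraries were tested. The cause was not tested.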

How the results depend on the processing

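In the crypts no gene was called under any alternative except Dnajb9 without WT 4 or KO 1, so the count with 1 library left out ran from 0 to 1. In KO-IEC organoids it ran from 0 to 2. In KO-CAG organoids the 6 calls became 0 with all 16 libraries in 1 fit, 0 with a 2-fold threshold added, and 1 to 7 with 1 library left out. DESeq2's Wald test lost Dnajb9 (adjusted p = 0.170) and Creld2 (adjusted p = 0.0690), and library size alone lost Hspa5 (edgeR adjusted p = 0.0600). No interaction was called under its alternatives. For KO-CAG organoids the fit of all 16 libraries called 3.06% of all its tested genes, where the main fit called 31.5%. The causes were not tested. Library size alone moved the median of all crypt genes to -0.09 log2 and the share of calls that were higher from 61.8% to 51%. Signs of small values turned, with library size alone, in the crypts for Xbp1 (-0.055), Hsp90b1 (-0.016), Pdia4 (-0.018), Sdf2l1 (-0.047), Calr (-0.035) and Creld2 (-0.0011), with the mitochondrial rRNA class as covariate for Xbp1 (-0.0077) and Calr (-0.034), and with Paneth and goblet markers as covariate for Xbp1 (-0.040). With 1 crypt library left out the log2 fold changes ran from -0.036 to 0.087 for Xbp1, -0.022 to 0.21 for Hsp90b1, -0.066 to 0.24 for Pdia4, -0.087 to 0.19 for Sdf2l1, -0.035 to 0.18 for Calr, -0.014 to 0.26 for Creld2 and -0.15 to 0.035 for Manf. In KO-IEC organoids they ran from -0.079 to 0.27 for Hspa5, -0.31 to 0.15 for Hsp90b1, -0.10 to 0.19 for Pdia4, -0.046 to 0.62 for Dnajb9, -0.018 to 0.24 for Calr and -0.41 to 0.13 for Creld2. In KO-CAG organoids they ran from -0.022 to 0.11 for Manf, -0.37 to -0.081 for Hsp90b1, -0.27 to -0.030 for Pdia4 and 0.36 to 0.72 for Sdf2l1.

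Same-numbered WT and KO libraries deviated from their group means with correlations of -0.04, 0.19, -0.40 and 0.43 (crypts), 0.34 (KO-IEC organoids) and 0.07 (KO-CAG organoids). The labels tie them by number alone, and whether they share more was not tested. In the KO-IEC organoid experiment WT 1 and KO 1 were in the middle class of mitochondrial ribosomal RNA, and WT 2 and KO 2 in the high class. With the replicate block the counts of the 10 genes called were 0, 0 and 6, and those of all genes went from 934 to 4 in the crypts and from 4278 to 4932 in KO-CAG organoids.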
